A study of Mus musculus with 115 samples.

Results

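The genes described here encode subunits of neurotransmitter receptors in the mouse. They were taken by a pattern on gene symbols among the protein-coding genes of the deposited count table. The pattern covered the GABA-A (Gabr), AMPA (Gria), kainate (Grik), delta (Grid) and metabotropic (Grm) glutamate, glycine (Glr), nicotinic (Chrn), muscarinic (Chrm), serotonin (Htr) and dopamine (Drd) receptor symbols. It took 84 of 37315 genes in the table, of which 22662 are protein coding, and 75 of the 84 encode receptor subunits. The other 9 share only the first letters of their symbols. They are Glrp1, the glutaredoxins Glrx2, Glrx3 and Glrx5, the delta receptor scaffold Grid2ip and the serine proteases Htra1, Htra2, Htra3 and Htra4. These 9 were kept out of all counts of subunits. The pattern took 0 genes of NMDA receptors, and 17 further subunit genes outside it, among them Grin1, Gabrd, Glrb and Gabbr1, are given as a separate list.

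RNA was sequenced from 4 tissues (brain, liver, skin, blood) of untreated male C57BL/6 mice (C57BL/6J in the study's methods) aged 2, 9, 15, 24 and 30 months. One hemisphere was taken of each brain, skin came from the hairless abdomen, and globin transcripts were depleted from blood RNA. From 2 to 30 months there were 8, 8, 8, 7 and 8 libraries of brain, 4, 5, 5, 5 and 5 of liver, 5 at each age of skin, and 5, 5, 5, 4 and 5 of blood. A further 3 libraries, of 24-month brain, 24-month blood and 2-month liver, were deposited in a separate table and entered only an alternative. In the text below, old mice are those of 24 and 30 months together, young mice are those of 2 months, and a gene was called where its adjusted p was under 0.05. Fold changes are log2 values of old against young mice with their standard error, and CPM is the read count of a gene relative to the scaled size of its library.

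Fast signalling between neurons runs on receptors that are ion channels. GABA-A and glycine receptors pass chloride and inhibit, whereas AMPA, kainate, nicotinic and Htr3 receptors pass cations and excite. Metabotropic glutamate, muscarinic, dopamine and the remaining serotonin receptors act through G proteins. Most channel receptors are assembled from several different subunits, so the subunit genes of a family are used in different combinations by different neurons and brain regions.

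Brain libraries held between 28141342 and 50375815 reads assigned to genes. The totals ran between 20190745 and 46592449 for liver, between 27010148 and 40648322 for skin, and between 28841527 and 35296480 for blood. The tissue labels were checked against marker genes, and each tissue carried its own set. The neuron markers, for example, summed to between 4571 and 9393 CPM in brain. Among the brain libraries, 5 pairs nearly coincided, each of one 9-month and one 15-month library (replicates 4 to 8 of both ages). Their chi-square per degree of freedom lay between 1.21 and 2.83, whereas the lowest of the other brain pairs was 4.46 and the median 43.6. For the subunit genes the median absolute log2 ratio within these pairs was 0.0544 to 0.0975, against 0.168 to 0.697 in replicates 1 to 3. The libraries were kept as labelled, and the main counts and correlations of brain that use 9 or 15 months are given also without them. The share of reads on mitochondrial genes ranged from 5.79% to 17.05% in brain. It is taken up below, because the subunit genes moved with it.

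The promoters of 4 genes on which the results turn are shown first, each as the 250 bases before to 50 bases after an annotated start, read 5′ to 3′ along the transcribed strand (RefSeq, GRCm38.p6). Such a window was found for 56 of the 75 genes, 67 windows in all. Glra2 was the one subunit gene called between old and young brain. Gria2 was among those far higher in brain than in other tissues, and it was called lower in old skin. Gabra3 was called higher in both old liver and old skin and not in brain, and Grm8 had the smallest p in liver. Capitals mark a match to a TATA box (TATAAA) on the opposite strand in Glra2 and Gabra3, a match to the RE1 element bound by the neuronal repressor REST on the opposite strand in Gria2, and all CpG dinucleotides in Grm8.
Glra2 (chrX:165327344-165327643, minus strand): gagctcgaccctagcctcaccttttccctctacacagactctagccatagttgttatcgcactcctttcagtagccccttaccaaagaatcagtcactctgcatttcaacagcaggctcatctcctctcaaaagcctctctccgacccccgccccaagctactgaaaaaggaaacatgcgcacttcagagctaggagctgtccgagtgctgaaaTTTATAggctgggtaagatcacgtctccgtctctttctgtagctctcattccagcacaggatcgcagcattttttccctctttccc
Gria2 (chr3:80802786-80803085, minus strand): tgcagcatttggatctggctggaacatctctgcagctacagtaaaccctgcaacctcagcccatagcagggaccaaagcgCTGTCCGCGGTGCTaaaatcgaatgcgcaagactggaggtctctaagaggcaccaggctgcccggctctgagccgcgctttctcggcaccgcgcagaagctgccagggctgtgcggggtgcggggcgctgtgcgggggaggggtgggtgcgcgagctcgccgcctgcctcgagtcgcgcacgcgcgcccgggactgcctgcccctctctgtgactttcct
Gabra3 (chrX:72656870-72657169, minus strand, 1 of 2 windows): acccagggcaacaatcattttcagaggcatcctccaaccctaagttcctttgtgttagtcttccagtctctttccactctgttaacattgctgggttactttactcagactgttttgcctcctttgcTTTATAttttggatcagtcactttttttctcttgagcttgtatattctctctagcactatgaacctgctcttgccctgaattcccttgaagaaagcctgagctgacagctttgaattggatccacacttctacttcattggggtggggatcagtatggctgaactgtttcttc
Grm8 (chr6:28135097-28135396, minus strand, 1 of 3 windows): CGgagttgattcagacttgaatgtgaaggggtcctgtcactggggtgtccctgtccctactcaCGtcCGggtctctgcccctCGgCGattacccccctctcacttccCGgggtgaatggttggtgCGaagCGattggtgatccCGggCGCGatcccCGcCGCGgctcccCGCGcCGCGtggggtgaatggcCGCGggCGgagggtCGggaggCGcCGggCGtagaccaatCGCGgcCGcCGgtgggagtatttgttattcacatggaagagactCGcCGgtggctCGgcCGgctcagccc

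Searched on both strands, TATAAA stood in 5 of the 67 windows (7.46%), in Chrnb1, Gabra3, Gabrb2 and Glra2, and in 13.6% of the 32851 windows of all genes. The first match began at -36 from the start in Glra2 and at -123 in Gabra3. The RE1 element stood in 1 of the 67 windows, that of Gria2, and in 0.0517% of all windows. The cyclic AMP response element TGACGTCA stood in 0 of the 67 windows and in 1.79% of all. The windows of the subunit genes held a median of 11 CpG and those of all genes a median of 7. The printed window of Grm8 held 33 CpG and that of Gabra3 held 0. These matches describe letters in the windows and no binding was measured.

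In brain, 70 of the 75 subunit genes had enough reads to be tested. Gabrr3, Grm6, Chrna9, Htr2b and Htr3b did not. Levels between genes were compared per length, as RPKM recomputed with annotated exon lengths (CPM per 1000 bases of exon). The median over the subunit genes was 3.14 ± 0.631 RPKM (SD, n = 39 libraries). The AMPA subunit gene Gria1 had the highest mean level (65.1 RPKM, range over libraries 38.8 to 79.2). Gria2 (35.6 RPKM), the kainate subunit gene Grik5 (33.6 RPKM) and Gabra3 (33.2 RPKM) were also among the highest, and their ranges over libraries overlapped. Gria2 encodes the subunit that makes AMPA receptors nearly impermeable to calcium.

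In other families the gene of highest mean level was Chrm4 (20.9 RPKM) among the muscarinic receptors and Grm5 (19.3 RPKM) among the metabotropic glutamate receptors. It was Drd1a (10.9 RPKM) among the dopamine receptors, Chrna4 (10.04 RPKM) and Chrnb2 (7.35 RPKM) among the nicotinic alpha and beta subunits, and Grid1 (9.15 RPKM) among the delta receptors. Htr2c (8.14 RPKM) led the G protein-coupled serotonin receptors, Glra2 (4.87 RPKM) the glycine receptor alpha subunits, Htr3a (3.12 RPKM) the serotonin-gated channels and Gabrr2 (0.629 RPKM) the GABA-A rho subunits. The lowest levels were those of Gabrr3 (0.00975 RPKM), Chrna9 (0.00905 RPKM), a subunit gene of inner ear hair cells, and Grm6 (0.00385 RPKM), a receptor gene of retinal bipolar cells.

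The genes differed in how much they varied between libraries of one age. Gabra5 and Gabra3 varied least among the levels named here, with a coefficient of variation within age of 4.49% and 5.12%. Gabra6, a subunit gene of cerebellar granule cells, varied by 168% and ranged between 0 and 40.8 CPM. Its values at 2 months were 26.3, 0.0524, 0.57, 4.11, 38.5, 0, 0.105 and 0.024 CPM, so that libraries of one age covered nearly the whole range. The glycine receptor gene Glra1, best known from spinal cord and brainstem, varied by 60.1%.

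The first comparison asked which subunit genes differ in brain between old and young mice. One gene was called. Glra2 (ENSMUSG00000018589, chromosome X, 165129017 to 165327393, minus strand, GRCm38), which encodes the alpha subunit of the glycine receptors typical of the developing brain, was lower in old mice. It had 10.9, 14.1 and 17.2 CPM (lowest, median and highest) in 15 old libraries, against 15.2, 17.1 and 20.1 CPM in 8 young libraries. The groups overlapped, and 13 of 15 old libraries lay below the lowest young one. Over the ages it averaged 17.4 ± 1.78 CPM at 2 months, 15.8 ± 2.68 at 9 months, 15.4 ± 1.95 at 15 months, 13.8 ± 1.36 at 24 months and 13.99 ± 2.15 at 30 months (SD, n = 8, 8, 8, 7 and 8). Outside the nearly coinciding libraries, replicates 1 to 3 had 13.3, 20.03 and 13.3 CPM at 9 months and 14.3, 15.1 and 13.1 CPM at 15 months. Its log2 fold change was -0.33 ± 0.08, with an adjusted p of 0.00757 in the quasi-likelihood test of edgeR. Leaving out each library in turn gave adjusted p between 0.00399 and 0.0251. With 24 months alone as the old group the fold change was -0.34 and the adjusted p was 0.0546.

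Of the 70 subunit genes tested, 0 were called higher and 1 was called lower, against 7.98% of all 18851 genes called in either direction. Without adjustment, 5 of the 70 (7.14%) and 18.6% of all genes had a p under 0.05. The median log2 fold change was 0.00 over the subunit genes, 36 of which were positive and 34 negative, and -0.00 over all genes. The 95% interval of the fold change lay within 0.5 log2 units of 0 for 51 of the 70 genes and within 1 for 68. The plot of fold changes by gene shows the estimates clustered on both sides of 0, with wide intervals for Gabra6 and Glra1. In RNA of a hemisphere, fewer cells of a type and less RNA per cell cannot be told apart.

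**Figure D1:**
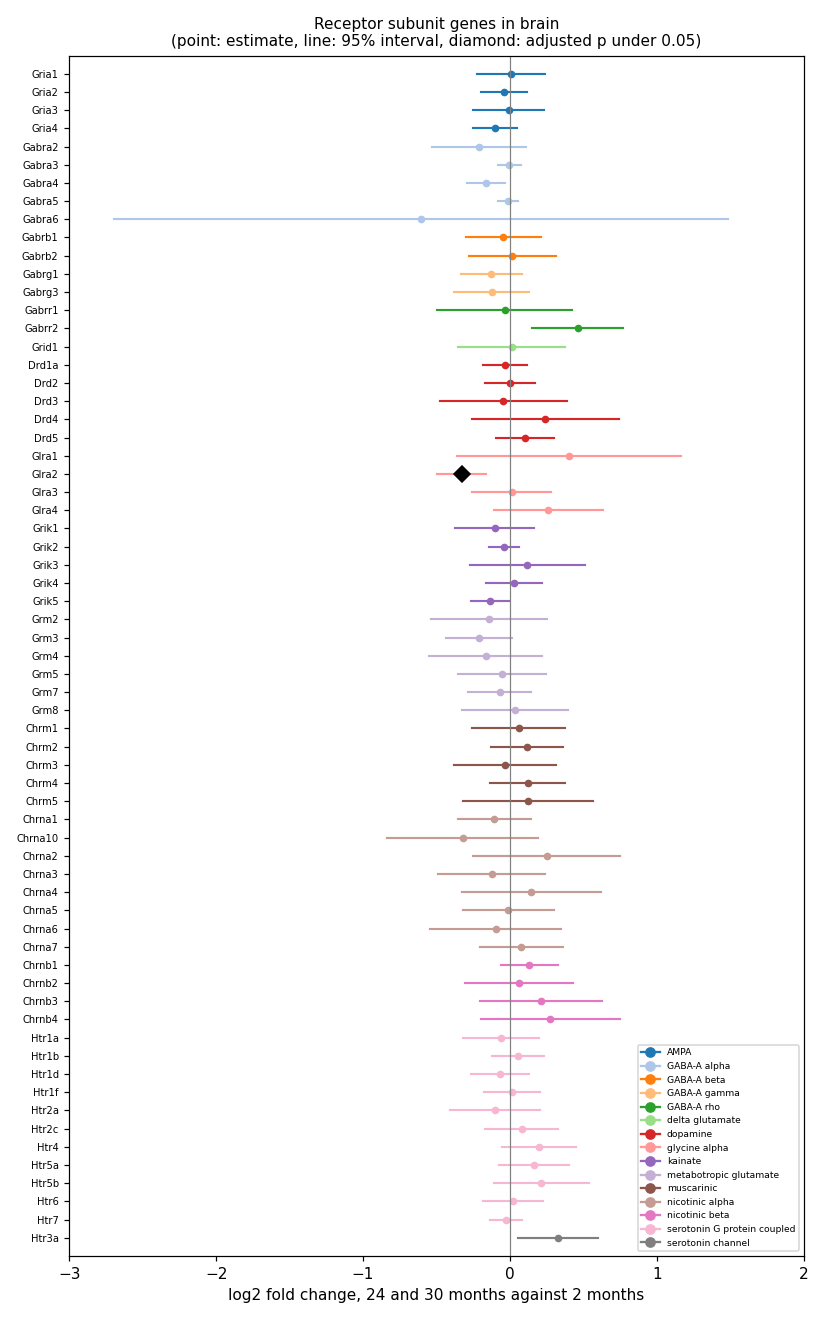
Log2 fold change in brain of old (24 and 30 months) against young (2 months) mice for 65 of the 70 subunit genes tested, with 95% intervals as lines and colours for receptor families. The black diamond is Glra2 (-0.33), the one gene with an adjusted p under 0.05, and 47 of the 65 intervals lie within 0.5 of 0.

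Among the inhibitory channels, Gabrr2, a rho subunit gene best known from the retina, had the next smallest p. It had 0.97, 1.32 and 2.26 CPM in 15 old libraries, against 0.745, 1.07 and 1.43 CPM in 8 young libraries. The groups overlapped, and 6 of 15 old libraries exceeded every young one. The log2 fold change was 0.46 ± 0.15 with an adjusted p of 0.0526. The threshold was passed when brain 2-month replicate 3 (adjusted p = 0.0459) or replicate 7 (0.0308), 15-month replicate 2 (0.0347), 24-month replicate 6 (0.0408), or 30-month replicate 4 (0.0469), 5 (0.0386) or 6 (0.0208) was left out. DESeq2 also called it (adjusted p = 0.0354). So did edgeR with title code and number as block (adjusted p = 0.00744), with the code alone as block (0.0252) and with the added libraries (0.042). Limma voom and the edgeR fit with no filter on low counts did not call it. Gabra4, which encodes the alpha subunit of many extrasynaptic GABA-A receptors, had 118, 139 and 158 CPM in old libraries, against 133, 158 and 166 CPM in young libraries. Its fold change of -0.16 ± 0.06 did not pass the test (adjusted p = 0.119). With title code and number as block in edgeR it was called (-0.17, adjusted p = 0.0295), whereas DESeq2 and limma voom did not call it. In the main fit the fold change was -0.13 ± 0.10 for Gabrg1, which was not called. The fold changes of Gabra3 (-0.00, interval -0.08 to 0.07) and Gabra5 (-0.01, interval -0.08 to 0.05) had the narrowest intervals of the 70 genes.

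Among the excitatory channels, the AMPA genes Gria1, Gria2, Gria3 and Gria4 had fold changes between -0.10 and 0.01, and 0 of the 4 were called. The kainate gene Grik5 had 121, 171 and 202 CPM in old libraries, against 154, 191 and 206 CPM in young libraries, and its fold change of -0.14 ± 0.06 did not pass (adjusted p = 0.215). Htr3a, the serotonin-gated channel of a class of cortical interneurons, had 4.91, 7.34 and 8.71 CPM in old libraries, against 4.18, 5.61 and 7.3 CPM in young libraries. The groups overlapped, 8 of 15 old libraries exceeded every young one, and the fold change of 0.33 ± 0.13 did not pass (adjusted p = 0.147). Chrnb1 (0.13 ± 0.10) and Chrna10 (-0.32 ± 0.25) were the nicotinic genes of smallest p in their groups. The annotated exons of Chrna10 share 39.003% of their bases with Art1, so reads of these genes may not have been separated.

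Among the G protein-coupled receptors, none of the metabotropic, muscarinic, dopamine or serotonin genes was called. Grm3, a metabotropic receptor of neurons and astrocytes, had the smallest p of its family in edgeR. It had 24.6, 58.6 and 67.4 CPM in old libraries, against 45.1, 65.7 and 72.1 CPM in young libraries. Its fold change was -0.21 ± 0.11 (adjusted p = 0.322). The values were 0.12 ± 0.12 for Chrm2, 0.20 ± 0.12 for Htr4 and 0.10 ± 0.10 for Drd5, which shares 48.6% of its exon bases with Gm26560. The striatal dopamine receptor genes Drd1a (-0.03 ± 0.07) and Drd2 (0.00 ± 0.08) had intervals within 0.2 log2 units of 0.

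The old ages were also set against 2 months one at a time, a comparison that shares the young libraries. At 24 months 0 of the 70 genes were called (2.57% of all genes). With same-numbered libraries of the titles as blocks, a fit added with the data in view, 1 was called at 24 months (4.15% of all genes), Glra2 (-0.32 ± 0.09, adjusted p = 0.0378). At 30 months 3 were called (9.93% of all genes), namely Gabrr2 (0.66 ± 0.17, adjusted p = 0.00781), Glra2 (-0.32 ± 0.10, adjusted p = 0.0255) and Grm3 (-0.39 ± 0.13, adjusted p = 0.0407). With the same blocks 6 were called at 30 months (13.99% of all genes), where Gabra2, Grik5 and Gabra4 were added. Gabrr2 averaged 1.71 ± 0.484 CPM at 30 months (SD, n = 8), against 1.08 ± 0.222 CPM at 2 months (SD, n = 8). Grm3 averaged 48.2 ± 12.2 CPM at 30 months, against 63.4 ± 8.47 CPM at 2 months (SD, n = 8 each). At 30 months its single values were 50.2, 43.9, 47.0, 55.2, 56.2, 66.02, 24.6 and 42.7 CPM, and the lowest came from replicate 7, which had the highest mitochondrial share of its age. Between 30 and 24 months Grm3 differed by -0.37 ± 0.13, which did not pass the test (adjusted p = 0.235).

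**Figure D2:**
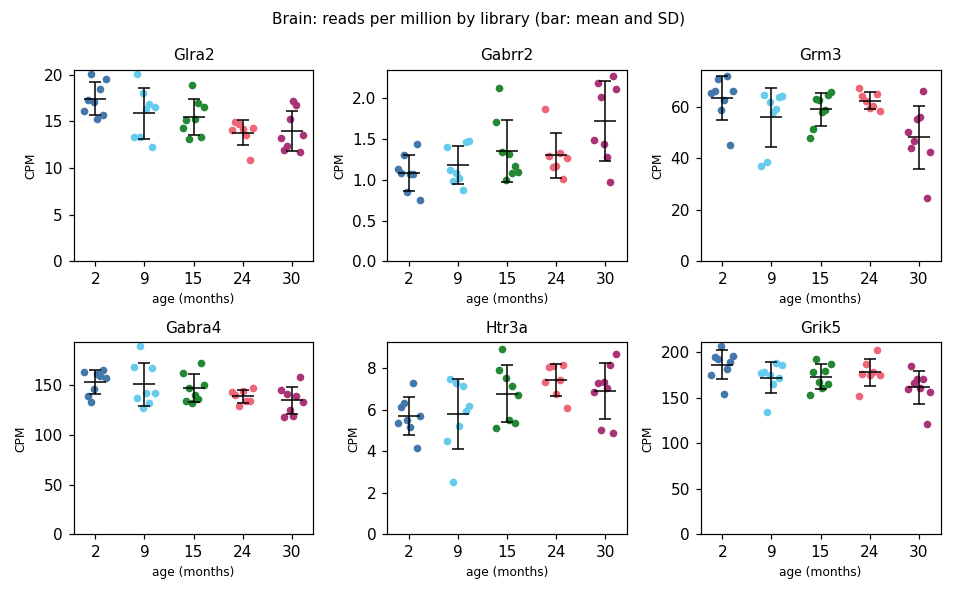
CPM by age in brain for Glra2, Gabrr2, Grm3, Gabra4, Htr3a and Grik5, with 1 point per library and bars for the mean and SD of 7 or 8 libraries. Glra2 averaged 13.8 and 13.99 CPM at 24 and 30 months, against 17.4 CPM at 2 months, and the points of neighbouring ages overlap in every panel.

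Over successive ages, 0 of the 70 genes were called at each step. The background was 0.34% of all genes between 9 and 2 months, 0% between 15 and 9 months, 0.0424% between 24 and 15 months and 0.249% between 30 and 24 months. At an unadjusted p under 0.05 the counts were 0, 0, 0 and 2 subunit genes in edgeR, given without the share of all genes at that p. DESeq2 and limma voom also called 0 at each step. With same-numbered libraries of the titles as blocks in edgeR, genes were called lower between 30 and 24 months. Among them were Grm3, Drd2, Chrm1 and Grm5, with adjusted p between 0.0237 and 0.0499, and the closing section describes that fit. The background above belongs to the fit without blocks, so these calls are not set against a share of all genes. The 15-month to 9-month step holds the nearly coinciding libraries, and without them 0 genes were called at any step.

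Other genes of the same pathway were read from lists. Of the 17 subunit genes outside the pattern, 13 were tested in brain and 0 were called in either direction (median -0.05). Of 28 genes of auxiliary receptor subunits and assembly factors, 0 were called higher and 3 lower (median -0.06). They were Neto2 (-0.25 ± 0.05), which encodes a kainate receptor partner, Nrn1 (-0.27 ± 0.06) and Cacng4 (-0.18 ± 0.05), a gene of an AMPA receptor auxiliary protein. Of 25 postsynaptic scaffold genes, Dlg4 (-0.28 ± 0.05, adjusted p = 4.69e-05), which encodes PSD-95, and Dlg2 (-0.22 ± 0.05) were lower and 0 were higher. Of the 11 genes of GABA and glycine synthesis and transport, the 10 of glutamate and the 11 of monoamines, 0 were called. Of 5 acetylcholine genes, the esterase gene Bche was lower (-0.33 ± 0.10). The counts over all genes given above are the background of these lists too.

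Across single brain libraries the subunit genes shared a pattern that was not age. Each library was given the median log2 deviation of the 70 genes from their means, and this was set against the share of mitochondrial reads. Over the 39 libraries Pearson's r was -0.974 and Spearman's rho was -0.960, each with a permutation p of 1e-05, the smallest that 100000 permutations can give. Without the 2 libraries farthest from the median share r was -0.970, and without the nearly coinciding libraries it was -0.972 (n = 29). Within single ages r was -0.967 at 2 months, -0.991 at 9 months, -0.978 at 15 months, -0.840 at 24 months and -0.984 at 30 months. The ages had overlapping mitochondrial shares, with medians of 8.51%, 8.38%, 7.65%, 7.29% and 7.95% from 2 to 30 months. The highest shares were 17.02% and 17.05% in 9-month replicates 1 and 3 and 16.53% in 30-month replicate 7, and these libraries had the lowest subunit levels (deviations of -0.54, -0.49 and -0.68 log2 units). Values in one library share its depth and scaling, and the cause of the relation was not tested.

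**Figure D3:**
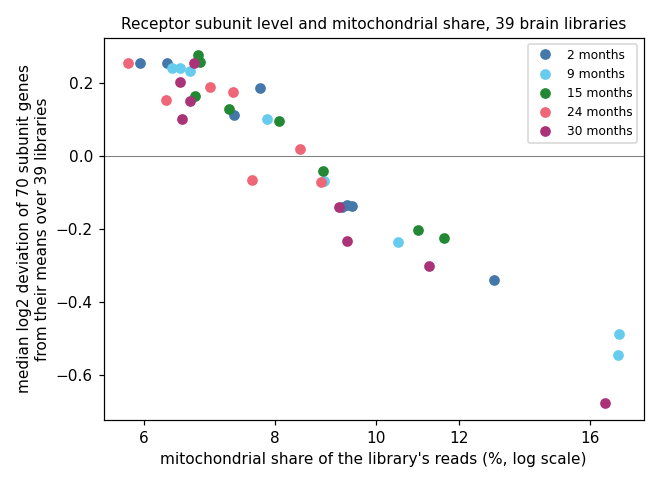
Median log2 deviation of the 70 subunit genes from their means over 39 brain libraries, against the mitochondrial share of reads in percent on a log axis, with 1 point per library coloured by age. The points fall from upper left to lower right at every age (Pearson's r between -0.840 and -0.991 within ages).

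Gene by gene, 57 of the 70 subunit genes were called lower and 4 higher per doubling of the mitochondrial share, with age in the model. Among all genes 36.3% were called lower and 42.3% higher. Without the nearly coinciding libraries 57 of 71 tested subunit genes were called lower and 4 higher, against 35.1% of all genes called lower and 38.4% higher. The median slope was -0.62 log2 units per doubling over the subunit genes and 0.05 over all genes. Steep called slopes were those of Glra1 (-1.997 ± 0.201), the high-affinity nicotinic subunit gene Chrna4 (-1.33 ± 0.05), Grik3 (-1.09 ± 0.05) and Grm2 (-1.08 ± 0.06). The 4 genes with a called positive slope were Gabrg1 (0.45 ± 0.05), Chrna1 (0.42 ± 0.09), Gabra4 (0.29 ± 0.03) and Htr1f (0.29 ± 0.07). The slopes of Gabra3 (-0.02 ± 0.03), Gabra5 (-0.04 ± 0.03) and Chrnb1 (-0.04 ± 0.09) were not called, and the first pair is also the pair of least variable genes above.

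Marker lists moved with the mitochondrial share as well. Over the 39 libraries r with it was -0.983 for the neuron list, -0.935 for interneurons, -0.934 for endothelium and mural cells, -0.828 for oligodendrocyte precursors, -0.060 for astrocytes, 0.733 for oligodendrocytes and 0.778 for microglia. Without the nearly coinciding libraries the values were -0.984 for the neuron list, 0.684 for oligodendrocytes and 0.826 for microglia. The part of these cells in the pattern of the subunit genes was not tested. Across genes, the slope had a Spearman rho of -0.187 with the GC content of the transcript over the 70 subunit genes and -0.199 over 18519 genes of all tested. With transcript length rho was -0.214 for the subunit genes and -0.468 for all genes. These are descriptions across genes, which are not independent replicates.

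With the mitochondrial share as a covariate, a setting added with the data in view, 13 of the 70 genes were called between old and young brain, against 22.3% of all genes. Without the nearly coinciding libraries 13 were also called, against 19.8% of all genes, but Gria4 was no longer among them and Htr2a was (-0.17 ± 0.06, edgeR adjusted p = 0.0488). In the fit of all 39 libraries 10 were lower, among them Glra2, Gabra2, Gabra4, Gabrg3, Gria4, Grik1, Grik5, Grm2 and Grm3, and 3 were higher, Gabrr2, Htr3a and Htr5a. Glra2 differed by -0.35 ± 0.06 (adjusted p = 3.89e-05), Gabra4 by -0.14 ± 0.03 (adjusted p = 0.00101) and Gabrr2 by 0.48 ± 0.14 (adjusted p = 0.0116). For these genes the estimates without the covariate were -0.33 for Glra2, -0.16 for Gabra4 and 0.46 for Gabrr2, and the standard errors were smaller with the covariate, 0.03 with it against 0.06 without it for Gabra4.

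The subunit genes also varied between libraries with marker genes of brain regions. Each of the 70 genes was correlated over the 39 libraries with the mean marker level of each of 10 regions after age means were removed, 700 relations in all. With the permutation p adjusted over the relations of all genes, an adjustment added with the data in view, 398 of the 700 had an adjusted p under 0.05 (46.3% of the relations of all genes), and 317 did without the nearly coinciding libraries (36% of the relations of all genes). Adjusted over the 700 alone, 405 were past the threshold in the 39 libraries. The choroid plexus score had the highest median r of the 10 regions (0.78), with 56 of the 70 genes positive past that threshold. Region scores were themselves correlated (hippocampus with cortex, r = 0.89) and followed the mitochondrial share, with r of -0.90 for hippocampus and -0.85 for cortex. With that share removed from both sides, 33 of the 700 relations were past the threshold adjusted over all genes (2.06% of the relations of all genes), and 4 were without the nearly coinciding libraries (0.207%). Adjusted over the 700 alone the counts were 80 and 19. Those named next were selected for their size, and their adjusted p is over all genes, where 0.00301, and 0.0113 without the nearly coinciding libraries, belong to the smallest p the permutations can give (1e-05).

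With cerebellar markers, the granule cell gene Gabra6 had r = 0.93 and, with the mitochondrial share removed, r = 0.93 (adjusted permutation p = 0.00301). The values were 0.79 and 0.90 for Grm4 and 0.70 and 0.71 for Gria4, both with an adjusted permutation p of 0.00301 in the second form. With striatal markers r was 0.78 and 0.74 for Drd1a and 0.78 and 0.65 for Drd2, the receptors of the direct and indirect pathway neurons. Without the nearly coinciding libraries the second form was no longer past the threshold for Drd2 (r = 0.47, adjusted permutation p = 0.338), Drd1a (0.0803) or Gria4 (0.0688). With brainstem markers r was 0.79 and 0.77 for Glra1. With cortical markers it was 0.93 and 0.74 for Chrm1 and 0.92 and 0.68 for Grm2. With thalamic markers it was 0.93 and 0.57 for Chrna4, and with olfactory bulb markers it was 0.68 and 0.53 for Chrnb4, whose second form was not past the threshold (adjusted permutation p = 0.0771). Without the nearly coinciding libraries the second form was not past it for Chrm1 (0.0536), Grm2 (0.0631) and Chrna4 (0.132) either, whereas it was for Gabra6, Grm4 and Glra1 (0.0113 each). Without the 2 libraries farthest in the region score, r before removal was 0.94 for Gabra6, 0.81 for Drd1a and 0.76 for Glra1. In all 39 libraries, r before removal was not particular to the region named for Chrm1 and Chrna4. With hippocampal markers it was 0.94 for Chrm1 and 0.92 for Chrna4, and with choroid plexus markers it was 0.91 for Chrna4. The 2-month libraries with the highest Gabra6 level, replicates 5 and 1, had 38.5 and 26.3 CPM, and differences in the tissue taken cannot be told apart from differences in expression in these data.

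Brain was then set against the other tissues at 2 months, where 70 subunit genes were tested in a joint fit, 68 of them among the 70 of the brain fit. Many of them did not pass the filter on low values in the other tissue and had to be higher in brain, so the counts do not compare brain with the other tissues over all members. Against liver 66 were higher in brain and 2 lower (41.8% of all genes were higher). Against skin 62 were higher and 5 lower (38.5% of all genes were higher), and against blood 66 were higher and 3 lower (50.3% of all genes were higher). Of the subunit genes that passed the filter in both tissues, 16 of 17 were higher in brain than in liver and 1 lower, 27 of 33 were higher than in skin and 3 lower, and 5 of 8 were higher than in blood and 2 lower. These counts too stand without a share over all genes that passed in both tissues and are not read as an excess. The nicotinic gene Chrna2 was lower in brain than in liver by 3.84 ± 0.41. Chrna1 and Chrnb1, subunit genes of the muscle nicotinic receptor, were lower in brain than in skin, with log2 differences of -2.53 ± 0.25 and -2.34 ± 0.25. Chrna10 (-3.24 ± 0.42), which shares 39.003% of its exon bases with Art1, was also lower in brain than in skin. Gabrr2 was lower in brain than in blood (-1.49 ± 0.26), as was Chrnb1 (-0.62 ± 0.27). Chrna9 and Htr2b did not pass the filter in brain and entered the fit through other tissues, so no difference is given for them, and Chrna9 was counted by 0 to 3 reads in each young brain. In all these differences tissue goes with library kit and sequencer for liver and with globin removal for blood. These cannot be told apart from tissue.

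In liver 17 of the 75 genes had enough reads, and 6 of them were called between old and young mice, against 14.3% of all 16319 genes. Of these, 5 were higher (9.03% of all genes) and 1 was lower (5.23% of all genes). The 17 passed a filter on low values in these same libraries, so the counts do not speak for all 75. The median log2 fold change was 0.91 over the 17 genes and -0.01 over all genes.

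Grm8 (ENSMUSG00000024211, chromosome 6, 27275119 to 28135178), a presynaptic metabotropic glutamate receptor in neurons, had 3.94, 5.54 and 8.61 CPM in 10 old liver libraries, against 1.35, 0.391, 2.38 and 1.43 CPM in the 4 young ones. The groups did not overlap, and the fold change was 2.11 ± 0.32 (adjusted p = 0.000702). The level already averaged 6.56 ± 2.47 CPM at 9 months (SD, n = 5). Chrm3, the muscarinic receptor of glands and smooth muscle, had 1.69, 2.77 and 3.06 CPM in old livers, against 1.39, 0.489, 0.224 and 0.256 CPM in young livers (2.07 ± 0.39, adjusted p = 0.00325), with no overlap. Gabra3 had 2.68, 4.03 and 5.68 CPM in old livers, against 2.08, 2.21, 1.97 and 1.72 CPM in young livers (1.04 ± 0.20, adjusted p = 0.00394), with no overlap. Grid1 had 1.07, 2.02 and 3.86 CPM in old livers, against 0.521, 0.944, 0.449 and 0.549 CPM in young livers (1.78 ± 0.37, adjusted p = 0.00582). In each of these 4 genes all 10 old livers exceeded the highest young one.

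Chrna2 was lower in old livers. It had 0.712, 2.14 and 5.05 CPM in old livers, against 0.912, 5.67, 10.4 and 7.42 CPM in young livers (-1.46 ± 0.36, adjusted p = 0.0123). Young replicate 1 lay within the old range, and the call was lost without young replicate 3 (adjusted p = 0.0962) or 4 (0.0581). Chrna4 had 11.1, 24.1 and 89.6 CPM in old livers, against 20.6, 6.9, 10.3 and 6.29 CPM in young livers (1.46 ± 0.46, adjusted p = 0.0383). Its groups overlapped, and the call was lost when any one of 7 libraries was left out. They were young replicates 2, 3 and 4, 24-month replicates 2 and 3, and 30-month replicates 1 and 3, with adjusted p between 0.0504 and 0.14.

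**Figure D4:**
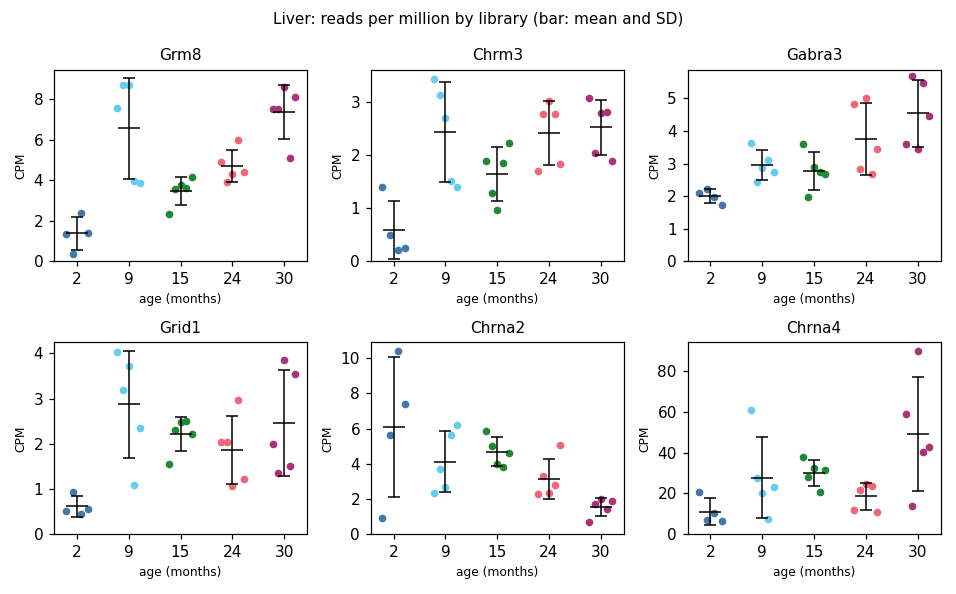
CPM by age in liver for the 6 called subunit genes, with 1 point per library and bars for the mean and SD of 4 or 5 libraries. Grm8, Chrm3 and Grid1 are low at 2 months and at the level of old mice by 9 months, whereas Chrna2 is lowest at 30 months.

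The step between 9 and 2 months held 3 of the called liver genes, Grm8 (2.26 ± 0.35, adjusted p = 0.0022), Grid1 (2.20 ± 0.40, adjusted p = 0.00859) and Chrm3 (2.06 ± 0.42, adjusted p = 0.0138), against 1.65% of all genes. With 30 set against 9 months, a comparison added after the data were seen that leaves out all young libraries, 2 genes were called, Chrna2 (-1.40) and Chrm1 (1.53). In it Grm8 differed by 0.17, Chrm3 by 0.05 and Grid1 by -0.22, none of them called. The count of 2 stands without a share of all genes and is not read as an excess. Markers of other cells moved with age too. Of 10 T and NK cell markers 8 were higher and 0 lower in old livers, with summed levels of 14.3, 44.8 and 278 CPM, against 3.99, 6.3 and 13.5 CPM in young livers (lowest, median and highest). Of 8 B cell markers 5 were higher, of 8 bile duct markers 1 and of 10 fibroblast and hepatic stellate cell markers 2, and 0 of these lists were lower. Their part in the subunit results was not tested.

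In skin 36 of the 75 genes were tested and 22 were called, 11 higher and 11 lower in old mice, against 43.9% of all 18803 genes (19.6% higher and 24.2% lower). Without young replicate 1, which stood apart, 25 were called, and the share of all genes in that fit is not given. The 36 genes passed a filter on low values in these same libraries, some of them through the group where they are high, so the counts do not speak for all 75. The higher genes included Htr2a, Gabrr1, Chrnb4, Gabra3, Htr2b, Chrnb1, Grik1, Chrm2, Chrm5 and Gabrr2. The lower genes were Chrna3, Gria2, Htr5b, Chrna4, Grik4, Gria3, Grid1, Htr1d, Grik3, Chrna2 and Chrnb2. Of these, Chrnb2 shares 16.3% of its exon bases with Adar, so reads of these genes may not have been separated. Among the 8 named next, only Gabra3 and Chrnb4 reached a median of 1 CPM in both groups.

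Htr2a, a serotonin receptor of smooth muscle and platelets as well as cortex, had 0.25, 0.527 and 0.828 CPM in 10 old skins, against 0.19, 0.216, 0.262, 0.173 and 0.172 CPM in 5 young skins (1.37 ± 0.25, adjusted p = 0.000896). All but 1 of the old skins exceeded every young one. Gabra3 had 4.75, 10.1 and 14.4 CPM in old skins, against 9.02, 2.81, 2.83, 3.26 and 2.55 CPM in young skins (1.30 ± 0.31, adjusted p = 0.00308). Chrnb4 had 1.66, 4.61 and 8.47 CPM in old skins, against 3.42, 1.24, 1.05, 0.953 and 0.918 CPM in young skins (1.69 ± 0.37, adjusted p = 0.00189). In both genes young replicate 1 stood apart from the other 4 young libraries and lay within the old range. Gabrr1 had 0.187, 0.513 and 1.42 CPM in old skins, against 0.266, 0.0309, 0, 0.0577 and 0.086 CPM in young skins (2.84 ± 0.59, adjusted p = 0.00157). Htr2b, a serotonin receptor gene that shares 11.8% of its exon bases with Psmd1, had a fold change of 1.06 ± 0.27 (adjusted p = 0.00502).

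Chrna3, the alpha subunit gene of ganglionic nicotinic receptors, had 0, 0.0335 and 0.187 CPM in old skins, against 0.038, 2.23, 2.26, 1.79 and 0.172 CPM in young skins (-4.50 ± 0.86, adjusted p = 0.00105). Gria2 had 0.0563, 0.327 and 0.781 CPM in old skins, against 0.0761, 2.66, 2.38, 2.68 and 0.946 CPM in young skins (-2.30 ± 0.54, adjusted p = 0.00293). Htr5b had 0, 0.0351 and 0.781 CPM in old skins, against 0.152, 1.39, 1.12, 1.82 and 0.803 CPM in young skins (-2.98 ± 0.76, adjusted p = 0.00461). Chrna3 was counted by 0 to 6 reads and Htr5b by 0 to 25 reads in each old skin. The level of the filter on low values was reached in 0 of 10 old skins for Chrna3 and in 1 of 10 for Htr5b, so both were tested because of their level at younger ages, and the size of their fitted fold changes depends on the prior count. Conversely, Gabrr1 and Htr2a reached it in 0 of 5 young skins. In all 3 genes young replicate 1 was the lowest young library and lay within the old range.

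**Figure D5:**
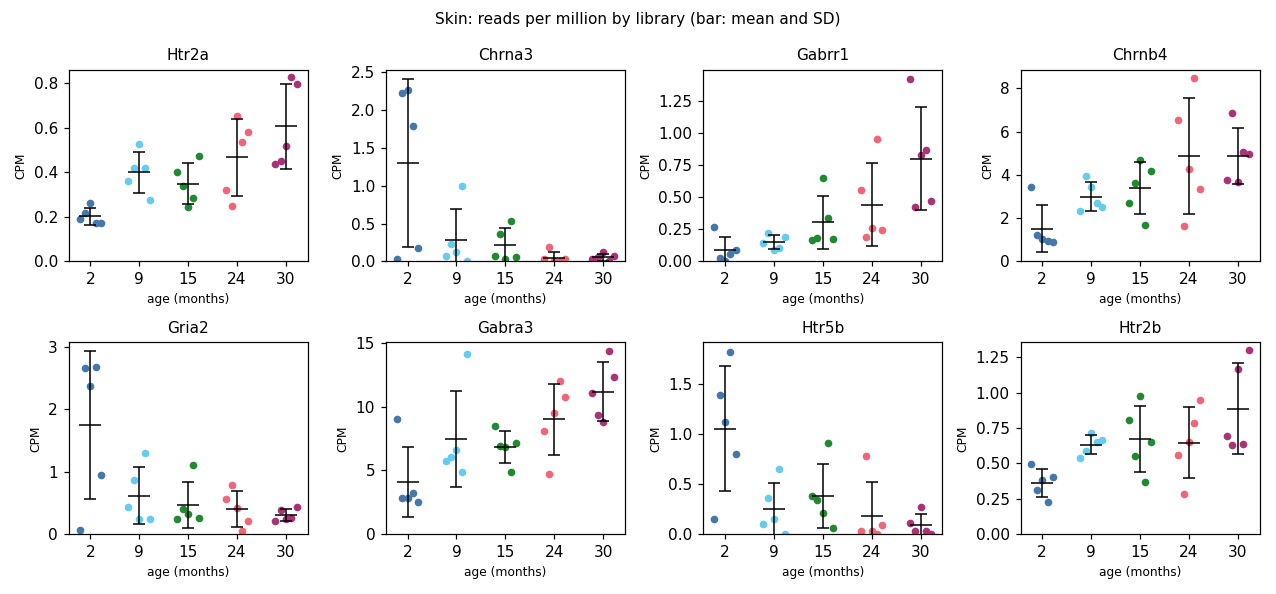
CPM by age in skin for the 8 called subunit genes of smallest p, with 1 point per library and bars for the mean and SD of 5 libraries. One 2-month library (replicate 1) lies with the older skins for Chrna3, Gria2, Htr5b, Chrnb4 and Gabra3.

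The same libraries stood apart in markers of the hair follicle. Of 12 hair matrix and shaft genes 10 were lower and 0 higher in old skins, with summed levels of 54.6, 178 and 13025 CPM, against 369, 23306 and 28944 CPM in young skins (lowest, median and highest), and the lowest young value was that of replicate 1. Of 8 melanocyte genes 8 were lower, at 20.9, 25.7 and 225 CPM in old skins, against 24.7, 375 and 498 CPM in young skins. Skeletal muscle genes summed to 23228, 40677 and 140063 CPM in old skins, against 8848, 9891 and 80611 CPM in young skins, with 1 of 12 called. The muscle receptor genes Chrnb1 (1.03 ± 0.31, called) and Chrna1 (0.74 ± 0.41, not called) had their highest old values, 50.6 and 31.5 CPM, in 30-month replicate 1 and their highest young values, 25.1 and 14.99 CPM, in replicate 1, in each case the library of its group with the highest muscle sum. The part of these cells in the subunit results was not tested. With 30 set against 9 months, without the young libraries, 1 of the subunit genes was called, Gabrr1. In the fit of all ages Gabrr1 reached the level of the filter on low values in 0 skins at 9 months and in 5 at 30 months. It was therefore tested because of its level at later ages. The count stands without a share of all genes and is not read as an excess.

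In blood 8 of the 75 genes were tested. Of these, Gabrr2 (ENSMUSG00000023267, chromosome 4, 33062999 to 33095865) was called lower, against 21.6% of all 14730 genes called. It had 0, 0.186 and 0.253 CPM in 9 old libraries, against 0.828, 1.03, 1.06, 1.51 and 1.15 CPM in 5 young ones, with no overlap. Its fold change was -2.80 ± 0.38 (adjusted p = 2.96e-05), and it averaged 0.449 ± 0.16 CPM at 9 months and 0.291 ± 0.175 CPM at 15 months (SD, n = 5 each). The gene was counted by 328 reads over all 24 blood libraries, 0 to 11 in each old and 19 to 39 in each young library, and the level of the filter on low values was reached in 1 of 9 old libraries and in 5 of 5 young ones. Of 10 naive T cell markers 6 were lower and 0 higher, at 321, 642 and 963 CPM summed in old blood, against 933, 988 and 1022 CPM in young blood, and their part in the result was not tested.

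Whether age had unequal effects in brain and in another tissue was tested as a difference of fold changes in one fit of all 4 tissues. The libraries entered it as independent, although 24 animals gave both a skin and a blood library. With the animal as a random effect in limma voom the counts below were 12, 21 and 3, and the shares of all genes in that fit are not given. Of the 73 subunit genes in that fit, 12 were called for brain minus liver (7.24% of all genes), 25 for brain minus skin (19.2%) and 4 for brain minus blood (12.4%). Of the subunit genes that passed the filter in both tissues, the counts were 6 of 17, 18 of 34 and 1 of 8. No share over all genes that passed in both tissues stands beside these counts, so they are not read as an excess. Grm8 differed by -2.10 ± 0.37 (adjusted p = 3.94e-05), from fold changes of 0.04 in brain and 2.11 in liver. Gabra3 differed by -1.05 ± 0.26 for brain minus liver (adjusted p = 0.00512) and by -1.29 ± 0.24 for brain minus skin (adjusted p = 4.08e-05). Gabrr2 differed by 3.24 ± 0.44 for brain minus blood (adjusted p = 2.23e-08), with fold changes of 0.46 in brain and -2.80 in blood. That difference rests on a gene tested in blood because of its level at younger ages, with 0 to 11 reads in each old blood library, and its size depends on the prior count.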

How the data were processed

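RNA was sequenced as single-end reads of 50 bases with TruSeq kits on HiSeq instruments. The deposited counts per gene were made by the authors, whose notes name CASAVA 1.7, bcl2fastq 1.8.3, TopHat2 2.0.6, HTSeq 0.5.3p9 and featureCounts 1.4.3-p1, and whether strand was used in counting is not given in the sources used here. The authors also deposited RPKM values, which were used only for 1 alternative, because the gene lengths they imply followed the annotated exon lengths with a Spearman rho of -0.0036 across genes. RPKM in the text was recomputed from the counts and GRCm38 exon lengths.

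Counts were tested per tissue with edgeR 4.0.16 (R 4.3.3; filterByExpr, TMM scaling, robust quasi-likelihood F test, 1 mean per age), with Benjamini-Hochberg adjustment over all genes tested and a threshold of 0.05. Old against young was the mean of 24 and 30 months minus 2 months. DESeq2 1.42.0, limma 3.58.1 and the other alternatives are described in the closing section. Correlations used permutations, 100000 for each relation (Python 3.11.15, scipy 1.17.1), and figures used matplotlib 3.10.9. The code was tested on simulated data. A total of 0 columns of the tables were left without a sample. Replicates are libraries the labels name as separate samples of an age and tissue, and p-values measure only the spread between them, which may be partly technical. Deviations of brain libraries with the same title number at 24 and 2 months correlated between 0.122 and 0.410 in 7 of 7 pairs, so a fit with that number as block was added for this comparison.

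Genes named are the called members in brain, the member of smallest p in each family without a call, the member of highest RPKM in each family, called members over intervals of age, up to 8 called members of smallest p in each other tissue, and up to 4 called genes of each list. Others (among them Gabra3, Gabra5, Gabra6, Glra1, Drd2, Chrna1 and the genes of the mitochondrial slopes and region relations) were named after their values were seen. The members and lists were chosen with earlier results of these data known. The values of some single members are not reported here.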

Additional observations from a re-analysis of the deposited data

Results flagged for a closer look

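Libraries far from the rest of their age were searched for only in genes chosen by their p-values in brain, liver, skin or blood, and 12 of 140 groups of 4 to 8 libraries had one, where chance gives about 1 in 20. In brain, Glra2 was 10.89 CPM in 24-month replicate 6 (next library 13.49), Gabrr2 was 1.866 CPM in 24-month replicate 1 (next 1.321), and Chrna10 was 0.5951 CPM in 9-month replicate 6 (next 0.3455). Grik5 was 134.6 CPM in 9-month replicate 3 (next 164.6) and 120.6 CPM in 30-month replicate 7 (next 156.6), which are libraries with mitochondrial shares of 17.05% and 16.53%.

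In skin, Chrna3 was 0.9918 CPM in 9-month replicate 4 (next 0.2247) and 0.1875 CPM in 24-month replicate 2 (next 0.03057), and Htr5b was 0.7812 CPM in the same 24-month replicate (next 0.09172). Gria2 was 1.108 CPM in 15-month replicate 4 (next 0.3993). In 2-month replicate 1 Chrnb4 was 3.424 CPM (next 1.237) and Gabra3 was 9.017 CPM (next 3.262), and Gabra3 was 14.13 CPM in 9-month replicate 5 (next 6.577).

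The age effect differed between brain and another tissue in a test of the difference itself, given here in log2 units as brain minus the other tissue with the adjusted p of edgeR. Against liver it was -2.097 for Grm8 (3.94e-05), -2.128 for Chrm3 (0.0003238), -1.046 for Gabra3 (0.005116), -1.794 for Grid1 (0.0009929) and 1.678 for Chrna2 (0.00274). Against skin it was -1.448 for Htr2a (0.002168), 4.354 for Chrna3 (2.605e-06), -2.863 for Gabrr1 (0.0001115), -1.407 for Chrnb4 (0.01266), 2.271 for Gria2 (0.0009087), -1.293 for Gabra3 (4.081e-05) and 3.193 for Htr5b (8.601e-05). Against blood it was 3.238 for Gabrr2 (2.23e-08). Chrna3 and Htr5b in skin and Gabrr2 in blood were tested because of their level at younger ages, and Gabrr1 and Htr2a in skin because of their level at later ones, so these 5 differences are not independent of the filter on low values, and their sizes depend on the prior count. The tissues do not share a mix of cells, and the part of cell mix in these differences was not tested.

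Outside the main table, the added 24-month brain library had 22.29% of its reads on mitochondrial genes, above the highest share in the main table (17.05%).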

How the results depend on the processing

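Of 1482 values recomputed under alternatives, 1402 were classed as unchanged. For a fold change this meant the same direction and the same side of the threshold. For a count of called genes it allowed some change, so that the leave-one-out skin counts of 17 to 25 below were all classed so. In brain, old against young, the count of called subunit genes was 1, and it became 0 with 24 months alone, 3 with 30 months alone, and 2 with DESeq2, with the added libraries or with the non-receptor genes of the pattern. It was 13 with the mitochondrial share as a covariate, with or without the nearly coinciding libraries, both added after the data were seen, and 1 to 2 when each library was left out. Glra2 stayed between -0.35 and -0.29, with adjusted p between 3.89e-05 and 0.0546 in edgeR, DESeq2 or limma. In liver, 30 against 9 months, also added later, gave 2 calls and -0.22 for Grid1. In skin 24 months alone gave 11 calls, 30 against 9 months 1, and leaving out each library 17 to 25. In blood the count of 1 became 2 with 24 months alone, DESeq2, the non-receptor genes or the subunits outside the pattern, 3 with no filter on low counts, and 1 to 2 without single libraries (2 without 30-month replicate 1, 2 or 4). With the mitochondrial share removed 80 region relations passed, 33 when adjusted over all genes, and 4 when adjusted so without the nearly coinciding libraries, and the deposited RPKM gave a median level of 9.33. The counts of called genes in this paragraph stand without shares of all genes and are not read as an excess. The cause of the differences between settings was not tested.

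For old against young and for the steps of age, the main fits did not take the numbers in the titles to pair the brain libraries. Same-numbered pairs with a correlation of deviations over 0.1 were 7 of 7 for 24 and 2 months, 5 of 7 for 30 and 2 months and 2 of 6 for 30 and 24 months. They were 6 of 8 for 9 and 2 months, 5 of 7 for 24 and 15 months and 7 of 8 for 15 and 9 months, which hold the nearly coinciding libraries. These values do not settle whether the numbers pair the libraries. The blocked values of 24 and of 30 months against 2 months stand beside those comparisons. With the replicate block (title code and number) 3 genes were called in brain, 5 between 30 and 24 months and 6 between 30 and 2 months (13.99% of all genes), where Gabra2, Grik5 and Gabra4 joined the 3 of the unblocked fit, and with the code alone as block 2. The counts of 3, 5 and 2 stand here without a share of all genes and are not set against one. No paired analysis was possible between ages within liver, skin and blood because their title numbers differ between ages.

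Low counts limit Gabrr2 in brain (31 to 101 reads per library) and most genes of skin and blood. The nearly coinciding brain libraries lower the effective number at 9 and 15 months.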
